A study of Mus musculus with 36 samples.

Results

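The strain by phenobarbital (PB) interaction in liver RNA was the difference between 2 responses: the log2 change from vehicle to PB in B6C3F1 mice minus the same change in C57BL/6 mice. It was computed for every gene on log2(CPM + 0.1), where CPM is the usual count of a gene's reads scaled to library size and TMM-normalised by the authors and 0.1 is a pseudocount that keeps low values finite. All 18 liver RNA libraries entered, of 36 libraries in the series; the other libraries were DNase-seq of the same animals. Of 13862 genes in the deposited table, 13838 reached 0.4 CPM in at least 3 mice of a group and were tested. A positive value means a larger rise, or a smaller fall, in B6C3F1. A value of 0.58 corresponds to a response ratio of about 1.5 between the strains.

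The study asked what PB, a liver tumour promoter in susceptible B6C3F1 mice and a much weaker one in C57BL/6 mice, does to hepatic chromatin and transcription before tumours form. All mice were male. The C57BL6 Vh group (4 mice) drank plain water for 91 days, and the C57BL6 PB group (5 mice) drank water with 0.05% (wt/vol) PB; both were 9 to 11 weeks old at the start. The B6C3F1 Vh (4 mice) and B6C3F1 PB (5 mice) groups had the same water and dose for 91 days but were 4 to 5 weeks old at the start. B6C3F1 is the cross of a C57BL/6 female with a C3H/He male, so each B6C3F1 mouse carries a full C57BL/6 chromosome set. The strains also came from different suppliers and from separate studies, so strain, age and study cannot be told apart in any value below. Each library was a separate animal. The reads counted in genes, recovered from the spacing of the CPM values, numbered 23766046 to 27812536 in C57BL/6 and 26971564 to 30307693 in B6C3F1 libraries, so that 1 read was worth 0.0336 to 0.0415 CPM.

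PB does not bind its main hepatic sensor directly. It acts through the constitutive androstane receptor (CAR, Nr1i3), a nuclear receptor that moves into the hepatocyte nucleus and raises transcription of drug-metabolizing enzymes, above all cytochromes P450 of the Cyp2b and Cyp2c subfamilies, together with transferases and transporters. In rodent liver the same receptor is needed for tumour promotion by PB.

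No gene passed the threshold of an absolute difference of at least 0.58 with a false discovery rate (FDR) of at most 0.01 in limma (0% of genes tested). At an unadjusted p under 0.05 there were 1093 genes, of which 562 (4.06% of genes tested) had a higher and 531 (3.84%) a lower response in B6C3F1. With edgeR on the recovered reads the counts were 0 and 1059. With DESeq2 they were 15 and 1113, and 7 of those 15 were positive. By limma, 5 genes (0.0361%) reached an FDR of 0.05, 4 of them with the larger response in B6C3F1. That count was 0 without mouse C57BL6_Vh_1025, B6C3F1_PB_2031 or B6C3F1_PB_2033 and without trended and robust moderation, and 19 without mouse B6C3F1_PB_2032. Of the 5 genes, Tmc5 passed the 0.4 CPM filter only through its B6C3F1 groups. The median over all genes was 0.00065, and the median absolute difference was 0.116 beside a median standard error of 0.146. The typical difference was thus smaller than its own standard error.

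**Figure D1:**
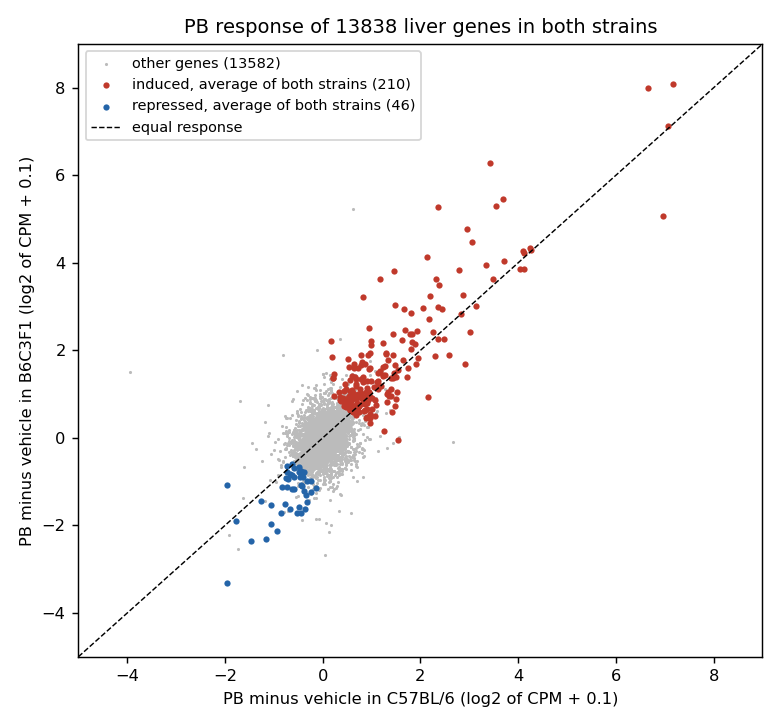
PB response in C57BL/6 (x axis) against PB response in B6C3F1 (y axis), both log2 of PB over vehicle, for each gene tested; colours mark the 210 genes induced and 46 genes repressed in the average over strains, and the diagonal is an equal response. Of the induced genes 151 of 210 lie above the diagonal, and of the repressed genes 43 of 46 lie below it.

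More genes passed the test for a PB response in B6C3F1 than in C57BL/6. In B6C3F1, 215 genes (1.55%) rose and 62 (0.448%) fell. In C57BL/6, 117 genes (0.845%) rose and 4 (0.0289%) fell. The 96 genes that rose in both were 44.7% of the B6C3F1 list and 82.1% of the C57BL/6 list. Only 2 genes fell in both, which were 3.23% of the B6C3F1 list and 50% of the C57BL/6 list, and no gene was called in opposite directions. With libraries weighted by quality, 229 genes were called in B6C3F1 and 159 in C57BL/6, against 277 and 121 in the main fit. These counts by strain do not show a difference between strains. The difference itself was called for no gene by limma and for 15 by DESeq2.

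To describe the interaction over genes not chosen by one strain, PB-responsive genes were taken from the response averaged over both strains, which called 210 genes higher (1.52%) and 46 lower (0.332%). Among the 210 induced genes, 151 (71.9%) had a positive difference, against 50.2% of all genes tested. Their median difference was 0.25, with an interquartile range of -0.02 to 0.64. At an unadjusted p under 0.05, 52 induced genes (24.8%) were higher and 10 (4.76%) lower in B6C3F1. The median response was 1.30 in B6C3F1 and 0.97 in C57BL/6, and 209 of the 210 genes had the same sign in both. The choice by an average over both strains favours genes with the same sign in each.

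The repressed genes showed this more uniformly. Of 46, 43 (93.5%) had a negative difference, and the median was -0.51. At an unadjusted p under 0.05, 17 (37%) were lower in B6C3F1 and 0 higher. The median response was -1.12 in B6C3F1 and -0.59 in C57BL/6. The 13582 genes in neither set had a median difference of -0.00011, and 50% were positive.

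The size of this shift depended on how responsive genes were chosen. For the 117 genes called higher in C57BL/6, a choice that favours large C57BL/6 responses, 68 (58.1%) were positive and the median was 0.08. For the 215 called higher in B6C3F1, 186 were positive and the median was 0.38. The choice by the average lay between, but B6C3F1 responses were also less precise. The median standard deviation (SD) across mice on the log2 scale was 0.120 in C57BL6 Vh, 0.126 in C57BL6 PB, 0.165 in B6C3F1 Vh and 0.155 in B6C3F1 PB. The median standard error of the response was 1.31 times as large in B6C3F1, so the average and the difference were not independent and no test over the chosen genes was made. Only 4 genes were called lower in C57BL/6, and 2 of them had a negative difference; this choice favours large falls in C57BL/6.

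Single mice showed the shift too, apart from 1. The median over the 210 induced genes of each mouse's log2 level over its strain's vehicle mean was 0.89, 1.03, 1.03, 1.01 and 1.10 in the 5 C57BL6 PB mice. It was 1.40, 0.99, 1.43, 1.29 and 1.23 in the 5 B6C3F1 PB mice. Of the latter, only mouse B6C3F1_PB_2032 lay within the C57BL/6 range, and without that mouse the median strain difference of the induced genes was 0.33. For the 46 repressed genes the values were -0.56, -0.53, -0.56, -0.77 and -0.55 in C57BL/6. They were -1.12, -0.83, -1.34, -1.20 and -1.12 in B6C3F1, with no overlap between the strains. These scores come from the genes that PB itself chose and are given as a description.

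**Figure D2:**
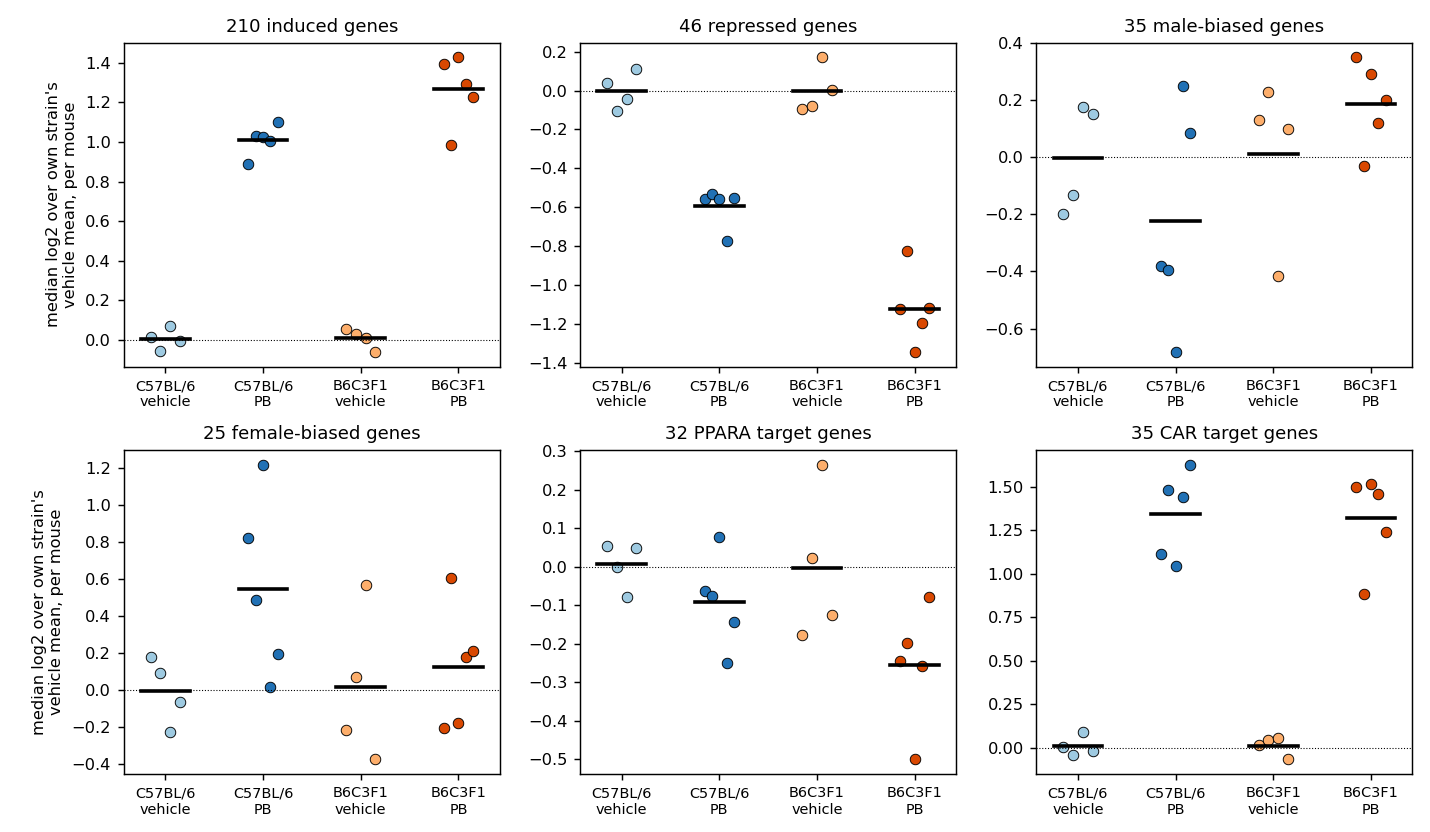
Median log2 level over the strain's vehicle mean (y axis) in each mouse of the 4 groups (x axis), for the 210 induced and 46 repressed genes; each point is a mouse and each bar a group mean, with the male-biased, female-biased, PPARA and CAR target lists in the other panels. Of the B6C3F1 PB mice, 4 lie above every C57BL6 PB mouse for the induced genes, and all 5 lie below every C57BL6 PB mouse for the repressed genes.

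A difference in response is, by arithmetic, the gap between strains under PB minus the gap under vehicle, and both parts can be read off. Over all 210 induced genes the median vehicle gap (B6C3F1 minus C57BL/6) was -0.02 and the median PB gap was 0.21. In the 52 induced genes at an unadjusted p under 0.05 and higher in B6C3F1, the vehicle gap was -0.30 and the PB gap 0.57. Of these 52, 40 started lower in B6C3F1 and 46 ended higher. In the 46 repressed genes the median gap was 0.08 under vehicle and -0.48 under PB, and in the 17 at an unadjusted p under 0.05 it was 0.28 and -0.59. The 52 and 17 genes were chosen by the difference itself, which builds in gaps of these signs, so their gaps are a description only. Over all 210 induced genes 52.4% started lower in B6C3F1, against 50.8% of all genes. The vehicle gap and the interaction share the vehicle mice, so no correlation between them is given.

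Starting level was described by the mean CPM of the vehicle mice, with both strains weighted equally. CPM does not correct for transcript length, so these bins reflect reads per gene. Below 1 CPM (1670 genes) the median absolute difference was 0.329 and 25.8% of genes exceeded 0.58. It was 0.167 at 1 to 10 CPM (4423 genes), 0.0832 at 10 to 100 CPM (6251 genes) and 0.0764 at 100 to 1000 CPM (1372 genes). At 1000 CPM and above (122 genes) it was 0.113. The median standard error moved the same way, from 0.457 below 1 CPM to 0.0781 at 100 to 1000 CPM and 0.0919 above, so the typical low gene differed by less than its error.

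Measured against their error, the abundant genes stood out more. The share at an unadjusted p under 0.05 was 7.49% below 1 CPM, 6.58% at 1 to 10, 7.85% at 10 to 100, 11.8% at 100 to 1000 and 19.7% at 1000 CPM and above. In the top bin 18 of the 24 such genes were higher in B6C3F1, and 81 of all 122 genes (66.4%) were positive, with a median of 0.05. With levels per kb of exon (13322 genes with a length) the top 2 bins had 15.1% and 15.3%, and 7 of 9 such genes in the highest bin were higher in B6C3F1.

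Among induced genes the median difference varied with the starting level. The 60 induced genes below 1 CPM had a median of 0.70, with 47 positive and 19 at an unadjusted p under 0.05 and higher. These genes also had the largest median responses of the bins (2.23 in B6C3F1 and 1.54 in C57BL/6) and a median standard error of 0.498. Those near 0 under vehicle passed the 0.4 CPM filter through their PB groups. Mup10, also in this bin, passed it only through its B6C3F1 groups, a route that favours a positive difference. How many others did so was not counted, so the median and rank of this bin are a description. The median difference was 0.25 for 77 genes at 1 to 10 CPM, 0.11 for 52 at 10 to 100 CPM and 0.31 for 18 at 100 to 1000 CPM. The median below 1 CPM moved with the scale. It was 0.58 with a pseudocount of 0.5, 0.46 with a pseudocount of 1 and 0.74 in edgeR. Of the 18 induced genes at 100 to 1000 CPM, 16 were positive and 8 were at an unadjusted p under 0.05 and higher, with 0 lower. The 3 induced genes above 1000 CPM had a median of -0.15. Repressed genes had medians of -0.67 (7 genes), -0.63 (19), -0.42 (17) and -0.72 (3) from the lowest bin upward.

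**Figure D3:**
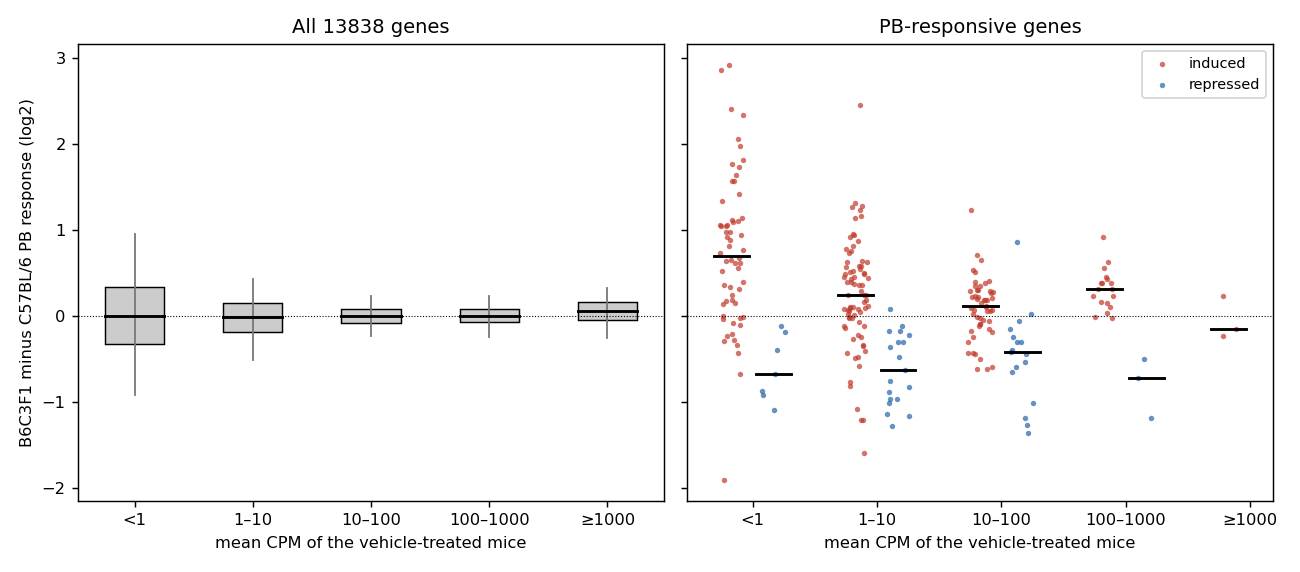
Strain difference in PB response (y axis, log2) by mean vehicle level (x axis, CPM bins) for all genes, induced genes and repressed genes; boxes show quartiles with whiskers over the central 90% of genes, points are single genes and bars are medians. All genes centre near 0 at every level, while induced genes below 1 CPM centre at 0.70 and the median of the repressed genes lies below 0 in every bin that holds any.

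By function, the lists were described by counts and medians beside those of all genes (median 0.00065, 50.2% positive, 4.06% higher and 3.84% lower at an unadjusted p under 0.05). No member of any list was called for the interaction by limma, while DESeq2 called Cyp2c37 and Cdh1. Of 35 known CAR target genes, 24 were called higher and 2 lower in B6C3F1 (1.55% and 0.448% of all genes), and 25 higher and 0 lower in C57BL/6 (0.845% and 0.0289%). Their median difference was 0.11, 22 were positive, and 9 were higher and 4 lower in B6C3F1 at an unadjusted p under 0.05. Without mouse C57BL6_PB_2023 the median difference was 0.06, and without mouse C57BL6_PB_2022 it was 0.16. The median response was 1.54 in B6C3F1 and 1.34 in C57BL/6. By mouse, the median over the list was 1.11, 1.48, 1.04, 1.44 and 1.63 in C57BL6 PB and 1.5, 0.88, 1.51, 1.46 and 1.24 in B6C3F1 PB, so the strains overlapped on the classical targets.

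Cyp2b10, the standard marker of CAR activation, did not separate the strains. Its levels were 7.92, 8.35, 7.53 and 11.1 CPM in C57BL6 Vh and 16.7, 8.36, 16.4 and 5.51 CPM in B6C3F1 Vh. Under PB they were 897, 1489, 1063, 1196 and 1323 CPM in C57BL/6 and 1662, 1179, 1737, 1381 and 1634 CPM in B6C3F1. The ranges of the strains overlapped in both states. The response was 7.13 in B6C3F1 and 7.07 in C57BL/6, a difference of 0.06 (SE 0.40, limma FDR 0.98) whose sign changed in edgeR and DESeq2. Cyp2c55, another strongly induced P450, responded by 4.34 and 4.25, a difference of 0.09 (SE 0.29, limma FDR 0.96). Neither error is small enough to show equal responses.

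The P450 family 2, which holds most PB-inducible oxidases, was the functional list with the most members at an unadjusted p under 0.05. Of 40 tested, 13 were higher and 4 lower in B6C3F1, with a median of 0.12. Of the 15 induced members, 13 were positive. Cyp2c37 had the smallest unadjusted p among the CAR targets. It stood at 360, 273, 386 and 371 CPM in C57BL6 Vh and at 216, 249, 124 and 173 CPM in B6C3F1 Vh. Under PB it reached a mean of 1445 ± 147 CPM (SD, n = 5) in C57BL/6 and 1451 ± 61.1 CPM (SD, n = 5) in B6C3F1. The response was 2.98 in B6C3F1 and 2.06 in C57BL/6 (difference 0.91, SE 0.23, limma FDR 0.30), and the strains differed at the vehicle end and met at the treated end. DESeq2 called this difference, and its FDR over the alternatives ran from 0.0074 to 0.54. Cyp2c66 was at 0 CPM or 1 read in every vehicle mouse of both strains. Under PB it ranged from 7.04 to 15.9 CPM in C57BL/6 and from 23.8 to 33.0 CPM in B6C3F1, without overlap. Within the family the direction was mixed, since Cyp2c39 and Cyp2c38 had differences of -2.29 and -1.77, with responses of -2.16 and -1.84 in B6C3F1 and 0.13 and -0.07 in C57BL/6. Neither of these 2 differences reached an FDR of 0.05 by limma, and DESeq2 called neither. Members of the Cyp2c and Cyp2d clusters are near copies of each other and only uniquely aligned reads were counted, so their levels are uncertain, and C3H sequence was aligned to the C57BL/6 reference.

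The other drug-metabolizing groups differed in the sign of their medians. The 4 genes of P450 family 3 were all positive (median 0.28), led by Cyp3a25, which responded by 0.37 in B6C3F1 and 0.04 in C57BL/6 (difference 0.33, SE 0.10, limma FDR 0.38). P450 family 1 (3 genes) had a median of 0.25 and P450 family 4 (13 genes) one of -0.06, which was positive in some alternatives. Glutathione S-transferases, which conjugate electrophiles, had a median of -0.08 over 21 genes with 4 positive. Of their 8 induced members 7 were negative, the reverse of the induced genes as a whole, with 3 list members lower and 1 higher at an unadjusted p under 0.05. Targets of NRF2, the oxidative stress regulator, had a median of -0.06 (20 genes, 4 positive, 0 at an unadjusted p under 0.05), and part of that list is the same transferases. Glucuronosyltransferases and sulfotransferases (27 genes) had 3 higher and 3 lower with a median of 0.09. Carboxylesterases with aldehyde and keto reductases (39 genes) had 4 higher and 8 lower with a median of -0.06. Transporters (25 genes) had 0 higher and 2 lower with a median of 0.07.

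Sult3a1, a sulfotransferase typical of female mouse liver, was the clearest exception among strongly induced genes. Its vehicle levels were at most 0.176 CPM in every mouse. Under PB it reached 33.4, 20.8, 35.2, 7.64 and 25.0 CPM in C57BL/6 but 4.94, 9.63, 4.03, 4.01 and 4.18 CPM in B6C3F1. The lowest C57BL6 PB mouse lay inside the B6C3F1 range. The response was 5.06 in B6C3F1 and 6.97 in C57BL/6 (difference -1.91, SE 0.59, limma FDR 0.40).

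Sex-biased genes had the largest opposite medians among lists of 20 or more genes. In 35 genes normally higher in male liver the median difference was 0.39, with 29 positive and 4 at an unadjusted p under 0.05 and higher (0 lower). In 25 genes normally higher in female liver it was -0.33, with 6 positive and 0 higher and 5 lower. Those 5 were Sult3a1, Hao2, Cyp2c40, Slc22a27 and Ntrk2, and the male-biased 4 were Mup10, C8b, Cyp2d9 and Moxd1. These lists overlap with the PB-responsive sets. The female-biased list held 7 induced genes, with Sult3a1, and 3 repressed genes, with Cyp2c40 and Ntrk2. The male-biased list held 2 induced genes, with Mup10, and 1 repressed gene. Mup10, a major urinary protein, averaged 0.346 ± 0.0598 CPM (SD, n = 4) in C57BL6 Vh, 0.419 ± 0.0748 (n = 5) in C57BL6 PB, 1.41 ± 0.574 (n = 4) in B6C3F1 Vh and 3.55 ± 0.637 (n = 5) in B6C3F1 PB. Mup10 passed the 0.4 CPM filter only through its B6C3F1 groups, so its difference is a description. Mup genes are near-identical copies and their counts are uncertain.

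The mice within a group disagreed on these lists. The median log2 level of the male-biased list over vehicle was -0.38, -0.39, -0.68, 0.25 and 0.09 in the C57BL6 PB mice and 0.35, -0.03, 0.29, 0.12 and 0.20 in the B6C3F1 PB mice. For the female-biased list it was 0.82, 0.49, 1.22, 0.01 and 0.19 in C57BL/6 and -0.21, 0.61, -0.18, 0.18 and 0.21 in B6C3F1. The strains overlapped on both lists. On the male-biased list 3 of the 5 C57BL6 PB mice lay below every B6C3F1 PB mouse, and on the female-biased list 2 lay above every one. Over the mice left out in turn, the medians stayed between 0.26 and 0.52 for the male-biased and between -0.57 and -0.25 for the female-biased list. Without both mice B6C3F1_Vh_1033 and B6C3F1_PB_2035 they were 0.22 and -0.45.

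The lists of PPARA targets, fatty acid and triglyceride synthesis and cholesterol synthesis had negative medians. Targets of PPARA, the fatty acid sensor that drives peroxisomal and mitochondrial oxidation, had a median of -0.18, and 2 of 32 were positive. Only 1 was higher and 3 were lower at an unadjusted p under 0.05. Pex11a, which promotes peroxisome division, was the first of them. It averaged 25.8 ± 1.72 CPM (SD, n = 4) and 26.2 ± 4.39 (n = 5) in C57BL6 Vh and PB, and 25.2 ± 6.31 (n = 4) and 15.0 ± 1.87 (n = 5) in B6C3F1 (difference -0.73, SE 0.20, limma FDR 0.35). All 5 B6C3F1 PB mice lay below every other mouse. Fatty acid and triglyceride synthesis (30 genes) had a median of -0.09 with 0 higher and 3 lower, and cholesterol synthesis (25 genes) one of -0.08. Without mouse B6C3F1_Vh_1033 the fatty acid synthesis median was 0.06, and without mouse C57BL6_PB_2025 the cholesterol synthesis median was 0.03. Glucose and glycogen metabolism (23 genes, median -0.02), bile acid synthesis (14 genes, 0.07) and oxidative phosphorylation (40 genes, -0.00089) held 1 higher and 1 lower, 1 higher and 0 lower, and 1 and 1 gene.

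Amino acid and urea cycle genes (34 genes, median 0.04) were balanced, with 3 higher and 3 lower, but held one of the strongly repressed genes. Csad makes the taurine precursor hypotaurine. It fell in B6C3F1 by 2.12 (limma FDR 5.6e-05), and its response in C57BL/6 was -0.93 (limma FDR 0.066), giving a difference of -1.19 (SE 0.35, limma FDR 0.39). Its vehicle mean was 132 ± 21.4 CPM (SD, n = 4) in C57BL/6 and 266 ± 66.2 (n = 4) in B6C3F1, and its PB mean was 70.2 ± 18.6 and 61.9 ± 20.9 CPM (n = 5 each). As with Cyp2c37, the strains differed before treatment and met after it. Etnppl, a periportal enzyme of phosphoethanolamine breakdown, fell in B6C3F1 by 0.90 with a response of -0.40 in C57BL/6 (difference -0.49, SE 0.11, limma FDR 0.17).

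Of the liver zonation lists, the 29 pericentral genes were close to the background, with 1 higher and 1 lower (6.9% against 7.9% of all genes) and a median of 0.07. Of the 24 periportal genes, 4 were higher and 2 lower (25%), with a median of 0.03. Acute phase and complement genes, secreted by hepatocytes, had 7 higher and 0 lower of 34 and a median of 0.10. The differences were small, from 0.13 in Cfb to 0.29 in Itih3. Ceruloplasmin (Cp) averaged 1555 ± 24.4 CPM (SD, n = 4) and 1560 ± 65.5 (n = 5) in C57BL6 Vh and PB, and 1625 ± 58.5 (n = 4) and 1882 ± 83.2 (n = 5) in B6C3F1 (difference 0.21, SE 0.06, limma FDR 0.39). Without mouse B6C3F1_Vh_1033 the list's median was 0.04. Ribosomal protein genes had 5 higher and 0 lower of 40, a median of 0.08 and 28 positive, and the median was 0.04 without mouse B6C3F1_Vh_1033. Circadian genes (20 genes, median 0.12) had 1 higher and 0 lower, and interferon and antigen presentation genes (38 genes, median -0.12) had 2 and 1. Without mouse B6C3F1_Vh_1035 these medians were 0.04 and -0.03.

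Growth and signalling lists did not move together. Cell cycle genes (35 genes) had a median of -0.24 with 10 positive, 1 higher (Ccnd1) and 1 lower (Pcna), and the median was -0.08 without mouse B6C3F1_Vh_1033. DNA damage and stress genes (34 genes) had a median of 0.06 with 1 higher and 1 lower, and TGF-beta and BMP signalling (38 genes) one of 0.02 with 2 and 2. Cadherin, catenin, Src and Wnt genes (35 genes) had a median of -0.03 with 3 higher and 2 lower. Within them Cdh1, which encodes the adhesion protein E-cadherin (mm10 chr8:106603350-106670247), rose in B6C3F1. It stood at 52.2, 51.9, 62.7 and 57.5 CPM in C57BL6 Vh and 55.3, 60.9, 55.6, 82.0 and 79.3 CPM in C57BL6 PB. In B6C3F1 it stood at 37.4, 32.3, 21.7 and 30.2 CPM under vehicle and 104, 56.9, 106, 74.9 and 82.7 CPM under PB. Every B6C3F1 Vh mouse was below every C57BL/6 mouse, and the PB groups overlapped. The response was 1.47 in B6C3F1 (limma FDR 0.00017) and 0.23 in C57BL/6 (difference 1.24, SE 0.28, limma FDR 0.18). DESeq2 called this difference, and its FDR over all alternatives ran from 0.0062 to 0.44.

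Src, a tyrosine kinase at cell contacts, responded by 1.6 in B6C3F1 and 0.64 in C57BL/6 (difference 0.96, SE 0.26, limma FDR 0.31). Tgfbr2, a TGF-beta receptor, responded by 0.72 and 0.48 (difference 0.23, SE 0.09, limma FDR 0.54). Ddah1, which breaks down methylated arginines, responded by -0.75 and -0.07 (difference -0.68, SE 0.24, limma FDR 0.47). The 4 genes of the imprinted Dlk1-Dio3 locus rose in both strains, with a median difference of 0.36 that changed sign with the settings. Meg3, its maternally expressed noncoding RNA, responded by 3.85 and 4.13 (difference -0.27, SE 0.74, limma FDR 0.96). Its sign changed with a pseudocount of 1.

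**Figure D4:**
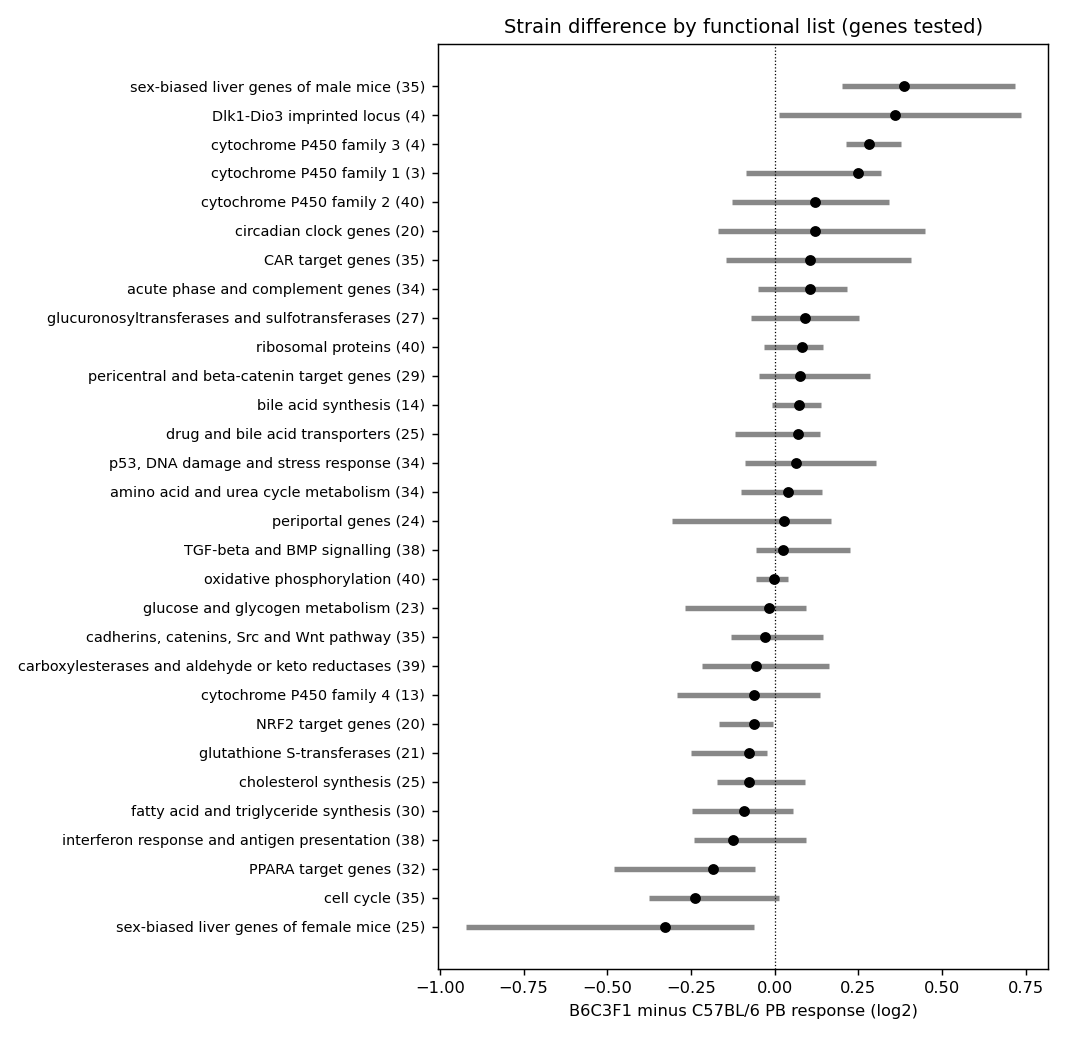
Median strain difference in PB response (x axis, log2) for each functional list (y axis), with the number of genes tested in parentheses; points are medians and bars the interquartile range. Male-biased (0.39) and female-biased (-0.33) genes lie farthest apart among the larger lists, and the PPARA targets (-0.18) and cell cycle genes (-0.24) are the next lowest.

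Most responsive genes were in none of the 30 functional lists. Of the 210 induced genes 138 were outside them, with a median of 0.29 and 101 positive. Of the 46 repressed genes 38 were outside, and 35 of these were negative. Positive differences among induced genes were thus not limited to the genes on these lists.

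The 5 genes at an FDR of 0.05 were named after their values were seen. Smpd3 (mm10 chr8:106252548-106337965) encodes a neutral sphingomyelinase that makes ceramide. It was at 2.78, 3.11, 2.98 and 2.89 CPM in C57BL6 Vh and 14.1, 16.3, 14.7, 14.7 and 15.1 CPM in C57BL6 PB. In B6C3F1 it was at 2.51, 1.54, 2.43 and 2.60 CPM under vehicle and 33.7, 20.5, 35.2, 25.5 and 31.2 CPM under PB. Smpd3 rose in both strains, and all 5 B6C3F1 PB mice were above every C57BL6 PB mouse. The response was 3.63 in B6C3F1 and 2.31 in C57BL/6 (difference 1.32, SE 0.20, limma FDR 0.020), and the FDR over the alternatives ran from 3.6e-05 to 0.10.

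Nostrin (mm10 chr2:69135800-69189330), an adaptor that traffics endothelial nitric oxide synthase, had a response in B6C3F1 just under the fold threshold. It averaged 23.4 ± 0.280 CPM (SD, n = 4) and 22.1 ± 1.82 (n = 5) in C57BL6 Vh and PB, and 18.1 ± 2.1 (n = 4) and 26.8 ± 2.03 (n = 5) in B6C3F1. The response was 0.57 in B6C3F1 and -0.09 in C57BL/6 (difference 0.66, SE 0.11, limma FDR 0.020), and this FDR ran up to 0.10 over the alternatives. P2rx4, an ATP-gated ion channel (mm10 chr5:122707518-122729739), averaged 40.3 ± 2.13 and 46.2 ± 4.86 CPM in C57BL6 Vh and PB, and 40.8 ± 0.425 and 68.9 ± 4.65 CPM in B6C3F1. The vehicle groups overlapped and the PB groups did not. The response was 0.75 in B6C3F1 and 0.19 in C57BL/6 (difference 0.56, SE 0.09, limma FDR 0.020). Over the alternatives the P2rx4 FDR ran up to 0.14 and was at most 0.05 in 24 of 32.

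Myo9a, an unconventional myosin (mm10 chr9:59750848-59928866), went the other way. It was at 53.3, 57.7, 52.9, 59.8 and 50.1 CPM in C57BL6 PB, above a vehicle mean of 28.1 ± 2.28 CPM (SD, n = 4). In B6C3F1 PB it was at 28.9, 29.8, 30.2, 28.9 and 23.3 CPM, against a vehicle mean of 22.1 ± 1.87 CPM (SD, n = 4). The PB groups did not overlap. The response was 0.96 in C57BL/6 and 0.35 in B6C3F1 (difference -0.61, SE 0.11, limma FDR 0.048), and this FDR ran up to 0.15 over the alternatives and was at most 0.05 in 12 of 32. Tmc5, a member of a transmembrane channel-like family (mm10 chr7:118597297-118675085), was near the level of single reads in C57BL/6, at no more than 0.24 CPM in any mouse. It averaged 1.66 ± 0.812 CPM (SD, n = 4) in B6C3F1 Vh and 6.13 ± 1.68 (n = 5) in B6C3F1 PB. Tmc5 passed the 0.4 CPM filter only through its B6C3F1 groups, so its difference is a description. That difference of 2.70 (SE 0.45, limma FDR 0.020) combines a B6C3F1 response of 1.89 (limma FDR 0.00037) with a C57BL/6 response of -0.81 at the floor. Over the alternatives the difference ranged from 1.57 to 4.33, and its FDR ran up to 0.20.

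**Figure D5:**
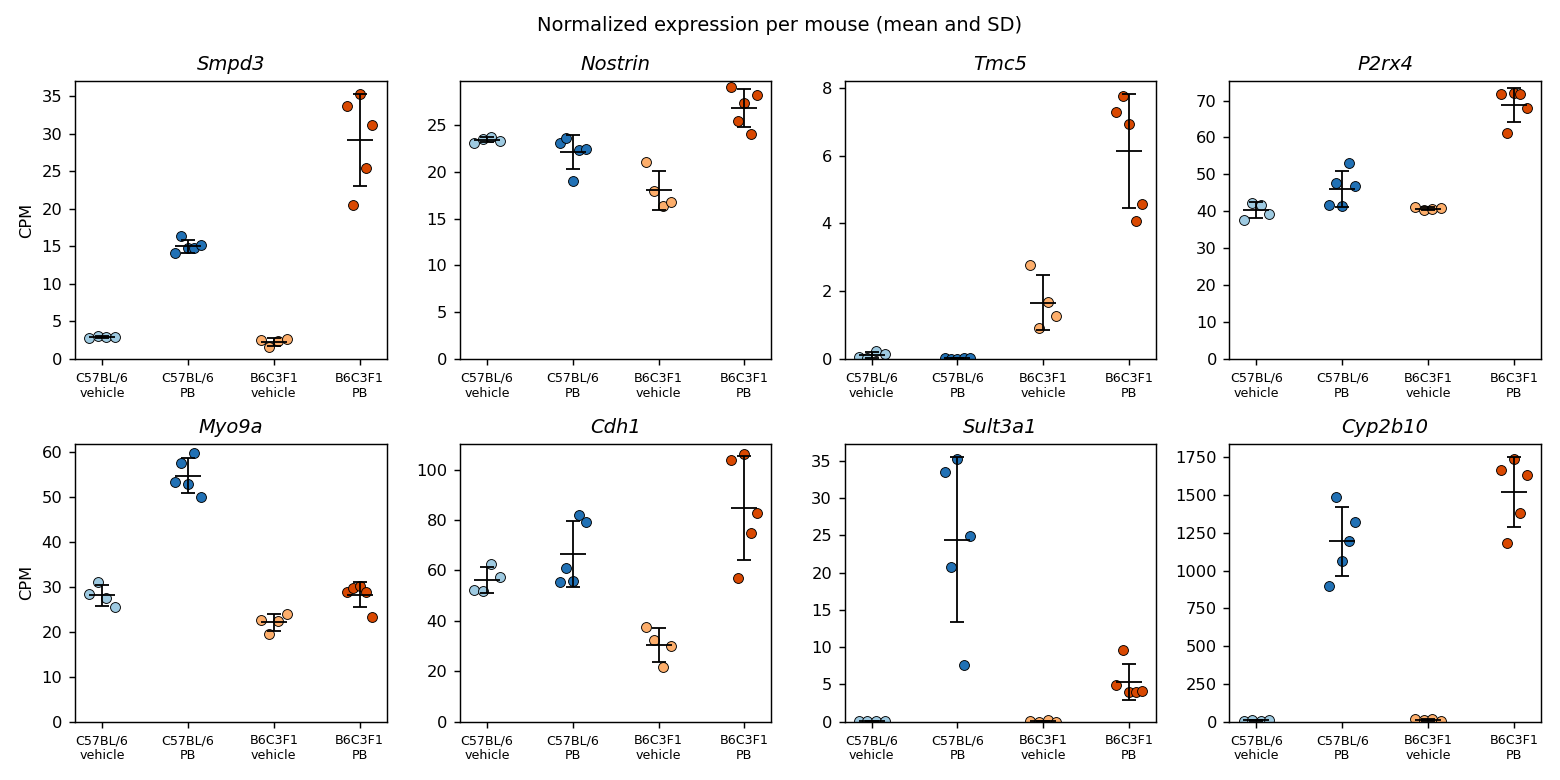
CPM in each mouse (y axis, linear) of the 4 groups (x axis) for 8 genes; points are single mice and bars the mean and SD. Smpd3 and P2rx4 separate the PB groups with B6C3F1 above, Myo9a separates them with C57BL/6 above, and Cyp2b10 overlaps between strains in both states.

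The chromatin of the same animals gave a separate readout. DNase hypersensitive sites (DHSs) mark open regulatory DNA, and the deposited values are normalised read counts per site. Of 98170 DHSs, 0 were called for the interaction in limma (0%), and at an unadjusted p under 0.05, 2.58% were higher and 2.81% lower in B6C3F1. The 157 DHSs over a transcript start of an induced gene (138 genes) had a median difference of 0.07, and 95 (60.5%) were positive. For starts of genes in neither set the median was -0.01 and 45.2% of 12134 were positive. The 32 DHSs over starts of repressed genes (29 genes) had a median of -0.15 and 7 (21.9%) positive. At an unadjusted p under 0.05, 7.01% of the DHSs at induced starts were higher, against 1.18% at the other starts, and 12.5% of those at repressed starts were lower, against 1.04%. With DHSs assigned to the nearest start, at any distance, the 2077 nearest an induced gene had a median of 0.02 and 51.9% positive, against 48.3% of all DHSs, and the 388 nearest a repressed gene had a median of -0.12 and 37.4% positive.

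The DHSs themselves, chosen by their own average response, showed the same shape. Of the 98170 DHSs, the 599 opened by PB had a median difference of 0.24 with 419 positive (69.9%). The 142 closed had a median of -0.44 with 14 positive (9.86%), against 48.3% positive among all DHSs. B6C3F1 was again the more variable strain, with median SDs of 0.282 and 0.280 in Vh and PB against 0.199 and 0.239 in C57BL/6, so the limit given for the RNA choice holds here.

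The start DHSs of single genes are given as a description, since no DHS was called for the strain difference. The Cyp2b10 start DHS went from 199.5 ± 38.4 (SD, n = 4) to 1225 ± 95.6 (n = 5) normalised counts in C57BL/6 and from 221 ± 24.2 to 1417 ± 142 in B6C3F1, a difference in response of 0.05 (SE 0.16). The Cdh1 start DHS went from 73.5 ± 15.8 to 81.8 ± 15.9 in C57BL/6 and from 42.1 ± 6.51 to 132 ± 31.6 in B6C3F1 (difference 1.45, SE 0.30, limma FDR 0.67). The Sult3a1 start DHS opened in C57BL/6, from 107 ± 17.2 to 261 ± 48.4 (limma FDR 0.00056), and stood at 93.4 ± 17.5 and 94.8 ± 28.8 in B6C3F1 (difference -1.28, SE 0.28, limma FDR 0.71). Its RNA gap and its DHS gap pointed the same way. The Pnliprp1 start DHS, at a pancreatic lipase-related gene, had a response of 1.29 in C57BL/6 and 2.38 in B6C3F1 (difference 1.09, SE 0.42, limma FDR 0.91). The Pnliprp1 RNA had a difference of 2.86 (SE 0.55, limma FDR 0.09), with PB means of 3.00 ± 0.462 and 11.2 ± 2.97 CPM (SD, n = 5 each) and vehicle means at most 0.27 CPM. Over the alternatives this difference ran from 1.82 to 4.28 and its FDR from 0.0013 to 0.18. The start DHSs of Smpd3, Nostrin and Myo9a had differences of 0.16, 0.08 and -0.03, with limma FDRs from 0.91 to 0.98.

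The sequences of 3 of these start regions are printed because their DHSs stand for the 3 patterns: a call in both strains (Cyp2b10), a call in B6C3F1 (Pnliprp1) and a call in C57BL/6 (Sult3a1). They are the plus strand of GRCm38.p6 (the build of mm10), 300 bases each, from RefSeq and the genome sequence: for Cyp2b10 chr7:25897408-25897707 and for Pnliprp1 chr19:58728637-58728936, from 250 bases before to 50 after the start, and for Sult3a1 chr10:33850755-33851054, the last 300 bases of the DHS over its upstream start. Capitals mark the nuclear receptor half-sites AGGTCA or AGTTCA, or their reverse complements TGACCT and TGAACT.
Cyp2b10: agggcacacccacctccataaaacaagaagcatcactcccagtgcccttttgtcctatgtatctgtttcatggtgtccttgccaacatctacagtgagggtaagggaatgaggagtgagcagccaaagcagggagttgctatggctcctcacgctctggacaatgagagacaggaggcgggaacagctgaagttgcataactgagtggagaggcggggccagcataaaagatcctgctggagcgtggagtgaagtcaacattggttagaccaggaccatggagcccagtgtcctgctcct
Pnliprp1: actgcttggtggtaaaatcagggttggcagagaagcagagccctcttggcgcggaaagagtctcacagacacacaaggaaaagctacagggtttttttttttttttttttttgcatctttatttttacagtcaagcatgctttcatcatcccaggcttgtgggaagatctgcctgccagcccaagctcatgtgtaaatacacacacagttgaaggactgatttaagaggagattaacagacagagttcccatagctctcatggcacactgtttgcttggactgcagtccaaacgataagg
Sult3a1: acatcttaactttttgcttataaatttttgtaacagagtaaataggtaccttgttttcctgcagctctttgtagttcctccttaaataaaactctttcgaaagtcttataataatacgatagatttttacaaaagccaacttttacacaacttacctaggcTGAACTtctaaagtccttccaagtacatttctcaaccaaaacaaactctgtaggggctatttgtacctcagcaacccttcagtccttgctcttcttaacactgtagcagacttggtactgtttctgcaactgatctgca
Only the Sult3a1 stretch held a match, a single TGAACT. Of 32851 promoters of this length, 16.3% held AGGTCA, 14% AGTTCA and 27.7% either, on either strand. A match is a description of letters and the lack of one says nothing about the receptor. The printed reference is the C57BL/6 sequence, and the C3H allele of B6C3F1 mice was not analysed here.

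In whole liver RNA, fewer cells of a type and less RNA per cell cannot be told apart. Hepatocyte markers were all present (16 of 16), with albumin (Alb) the most abundant. Their summed level was 135928, 121889, 149732 and 134920 CPM in C57BL6 Vh, C57BL6 PB, B6C3F1 Vh and B6C3F1 PB, and 4 were higher and 0 lower for the interaction, with a median of 0.09. Endothelial markers (20 tested, led by Ptprb) summed to 1085, 1172, 1037 and 1061 CPM in the same order, with 1 higher, 2 lower and a median of -0.06. Kupffer cell and macrophage markers (16, led by Mpeg1) summed to 493, 529, 386 and 398 CPM, with a median of -0.04 and 0 at an unadjusted p under 0.05. Stellate cell markers (17, led by Reln) summed to 766, 697, 771 and 671 CPM, with a median of -0.09 and 0. Cholangiocyte markers (11, led by Pkhd1) summed to 98.6, 106, 91.7 and 96.1 CPM, with a median of -0.09 and 0.

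Blood cell markers were sparse. Lymphocyte markers (6 of 18 in the table, led by Cd4) summed to 4.66, 4.00, 3.41 and 3.27 CPM. Their median difference was 0.34, with 3 of 6 positive, and 1 higher and 0 lower at an unadjusted p under 0.05. Without mouse C57BL6_PB_2022 this median was 0.20. Neutrophil markers (3 of 13, led by Csf3r) summed to 2.24, 1.74, 1.76 and 2.09 CPM, with a median of 0.70, all 3 positive and 0 at an unadjusted p under 0.05, and the median was 0.36 without mouse B6C3F1_PB_2035 and 0.26 with a pseudocount of 1. Erythrocyte markers (4 of 12, led by Alas2) summed to 222, 296, 280 and 329 CPM, with a median of -0.14, 1 positive and 0 at an unadjusted p under 0.05. No marker in the table was at 0 in all 18 mice. The endothelial sum was farther above vehicle in C57BL6 PB than in B6C3F1 PB, the reverse of Nostrin. The part of cell makeup in the strain differences was not tested.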

How the data were processed

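Liver RNA of 18 male mice was profiled by stranded, ribosomal RNA-depleted sequencing. Per the study's methods, the authors aligned reads with STAR 2.4.0f1 to mm10, counted unique reads per RefSeq gene by strand, scaled them with edgeR 3.12.1 (TMM) and kept genes of at least 0.4 CPM in 3 samples of a group. The deposited values are this normalised signal in CPM, without length correction. All values came out as whole reads (tolerance 0.02 read) at 23766046 to 30307693 per library. The authors' DHS file holds a normalised signal, read counts per consensus DHS from MACS2 2.1.1.20160309 and DiffBind 1.16.3, so a count test was not used there.

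Values were taken as log2(CPM + 0.1) or log2(DHS value + 1) and fitted in limma 3.58.1 (R 4.3.3) with 4 group means, a mean-variance trend and robust moderation. Tests were two-sided, with Benjamini-Hochberg adjustment over all genes or DHSs. The fit was tested on simulated data, and no result of that test is given or used here. Genes named were those called, the smallest interaction p of each list and level bin, genes the study names, and the 5 largest average responses in each direction; the 5 at an FDR of 0.05 were added after their values were seen, as were other list members given as examples. The genes, lists and tests were chosen with earlier results of these data known. Lists were described by counts and medians, with no test of the list. Results of a few list genes are not reported here. Gene positions and sequences were taken from RefSeq on GRCm38.p6 (13322 of 13838 genes matched).

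Alternatives were other pseudocounts, filters, scalings and thresholds, edgeR 4.0.16 and DESeq2 1.42.0 on the recovered reads, sample weights, a replicate block and leaving out each mouse. The last digits of the animal numbers did not pair the mice (r of deviations from -0.142 to 0.165 over 25 pairs), so the replicate block is only an alternative. Choices by strain call, levels per kb of exon and leaving out 2 mice of low weight were added after seeing the data.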

Additional observations from a re-analysis of the deposited data

Results flagged for a closer look

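Results of 2 kinds were marked. First, a single mouse stood far from the rest of its group (Dixon's criterion) in 22 of 244 groups examined, and chance gives about 1 in 20. In B6C3F1 Vh these were Mgst3 (16.2 CPM), Ces1b (181 CPM) and Pcx (773 CPM) in mouse B6C3F1_Vh_1033, Smpd3 (1.54 CPM) in mouse B6C3F1_Vh_1032, and Src (3.08 CPM), Nr4a2 (1.39 CPM) and Cyp2c66 (0.0339 CPM, 1 read) in mouse B6C3F1_Vh_1031. In B6C3F1 PB they were Sult3a1 (9.63 CPM) and Ddah1 (103 CPM) in mouse B6C3F1_PB_2032, Tgfbr2 (45.4 CPM) and Ntrk2 (3.78 CPM) in mouse B6C3F1_PB_2033, the summed Kupffer cell and macrophage markers (454 CPM) in mouse B6C3F1_PB_2034, and Ifi47 (34.3 CPM), Csad (97.8 CPM) and Myo9a (23.3 CPM) in mouse B6C3F1_PB_2035. In C57BL6 Vh they were Ugt3a1 (98.8 CPM) in mouse C57BL6_Vh_1025, Car3 (3510 CPM) in mouse C57BL6_Vh_1023, Nr4a2 (0.455 CPM) in mouse C57BL6_Vh_1022 and Cyp2c66 (0.0357 CPM, 1 read) in mouse C57BL6_Vh_1021. In C57BL6 PB they were Etnppl (175 CPM) and Nostrin (19.0 CPM) in mouse C57BL6_PB_2023 and the median of the repressed genes (-0.771) in mouse C57BL6_PB_2024.

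Second, the PB response differed between strains by limma at an FDR of 0.05 for Smpd3 (1.32), Nostrin (0.66), Tmc5 (2.70), P2rx4 (0.56) and Myo9a (-0.61). Tmc5 passed the 0.4 CPM filter only through its B6C3F1 groups, so its value is a description. The low Smpd3 value of mouse B6C3F1_Vh_1032, the low Nostrin value of mouse C57BL6_PB_2023 and the low Myo9a value of mouse B6C3F1_PB_2035 each lie in the direction of the difference given for that gene.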

How the results depend on the processing

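Of 52 named genes, 47 kept the sign of their strain difference in all 32 alternatives, as did 23 of 38 list medians in 30. The list medians that changed sign in at least 1 were P450 family 4, NRF2 targets, cholesterol synthesis, fatty acid synthesis, glucose, amino acid, periportal, cell cycle, DNA damage and stress, cadherin and Wnt, Dlk1-Dio3, oxidative phosphorylation, cholangiocyte, Kupffer cell and stellate cell genes. With a mouse left out, 34 of the 38 list medians moved by over 1.5 times or changed sign in at least 1 case, all but those of P450 families 2 and 3, PPARA targets and male-biased genes. The other named genes reversed: Cyp2b13 (-0.120) and Meg3 (0.188) with a pseudocount of 1, Nr4a2 (0.0396) with quantile normalization, and Cyp2b10 with edgeR (-0.0846) and DESeq2 (-0.0818). With a mouse left out, Meg3 ran from -0.875 to 0.0556, Nr4a2 from -0.267 to 0.109, Cyp2b10 from -0.253 to 0.276 and Cyp2c55 from -0.0578 to 0.209. The cause was not tested.

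The interaction called 3 genes (Pnliprp1, Smpd3, Tmc5) with pseudocounts of 0.5 and of 1, 15 with DESeq2, 1 (Smpd3) with sample weights and 4 at an FDR of 0.05. It called 0 to 3 with a mouse left out, the 3 without mouse B6C3F1_PB_2032. With a mouse left out, calls were 214 to 304 in B6C3F1, 95 to 129 in C57BL/6 and 231 to 271 in the average. With DESeq2 they were 376 in B6C3F1 and 163 in C57BL/6, and with sample weights 229 and 159. With no minimum difference they were 617 in B6C3F1, 221 in C57BL/6 and 824 in the average. The medians of the induced and repressed genes were then 0.11 and -0.13. Those medians were 0.0753 and 0.0666 when genes were chosen in C57BL/6 and 0.38 and -0.72 when chosen in B6C3F1. They ran from 0.23 to 0.33 and from -0.65 to -0.36 with a mouse left out. Without mice B6C3F1_Vh_1033 and B6C3F1_PB_2035 they were 0.35 and -0.60. Genes at an unadjusted p under 0.05 in the top level bin numbered 24, 9 by level per kb, and 16 to 28 with a mouse left out. With the replicate block 0 genes were called and 4 reached an FDR of 0.05. It moved no count of calls by over 1.5 times. No DHS was called in any of 20 alternatives.

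Depth limits genes below 1 CPM, where the median standard error was 0.457. Strain, age, supplier and study cannot be told apart, and RNA reads of the C3H allele were aligned to the C57BL/6 reference.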
